A study of Arabidopsis thaliana with 6 samples.

Results

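The genes described here are the 10 core components of the circadian clock of *Arabidopsis thaliana*. They were chosen by identifier from a list of known clock genes and make up 10 of the 44200 features of the deposited count table. All 10 passed the filter on low counts and were among the 21606 features tested. The list comprised the morning MYB factors *CCA1* and *LHY*, the pseudo-response regulators *PRR9*, *PRR7*, *PRR5* and *TOC1*, the evening gene *GI*, and the evening complex genes *ELF3*, *ELF4* and *LUX*.

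The study compared wild type seedlings with the *nsra/b* double mutant, which lacks intact copies of both genes for nuclear speckle RNA binding proteins (NSRs) and carries a T-DNA insertion in each. Col-0 and *nsra/b* plantlets shared the Col-0 background, were grown in long days (16 h light and 8 h dark) on half-strength MS medium, were transferred on day 14 to fresh mock medium for 24 h, and were harvested whole on day 15 according to the labels. The methods give a younger age at transfer. There were 3 libraries of polyadenylated RNA per genotype, 6 in all. The hour of harvest is not given in the sources used here, and because whole plantlets were ground, the levels are averages over shoot and root. A lower level may come from fewer cells of a type or from less RNA per cell, which cannot be told apart in these data.

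The sources used here do not pair NSRa and NSRb with gene identifiers, so the labels were not checked against the mutated genes by name. AT1G76940, whose annotation reads RNA-binding with RRM motifs, had 396, 519 and 441 counts in the libraries labelled Col-0 against 4987, 5898 and 5577 in those labelled *nsra/b* (log2 fold change 3.65, adjusted p = 4.27e-37 with edgeR). AT1G21320, annotated as a nucleic acid binding protein, had 17, 25 and 25 counts against 81, 78 and 88 (log2 fold change 1.93, adjusted p = 1.51e-09 with edgeR). Both were thus higher under the *nsra/b* label. Should these be the mutated genes, that is the opposite direction to a loss of transcript, and neither transcription from the insertions nor an exchange of labels was tested. *FLC* (AT5G10140), a repressor of flowering that RT-qPCR also assayed in plants of these genotypes, had 75, 102 and 70 counts in the libraries labelled Col-0 against 8, 7 and 7 in those labelled *nsra/b* (log2 fold change -3.42, adjusted p = 1.6e-12 with edgeR). Every direction given here rests on the labels, and Col-0 and *nsra/b* stand for the libraries labelled so.

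The clock of plants is a loop of transcription factors that repress each other in turn over the day. CCA1 and LHY accumulate around dawn and repress genes of the evening, PRR9, PRR7 and PRR5 follow each other through the day and repress *CCA1* and *LHY*, and TOC1 takes over this role in the evening. The complex of ELF3, ELF4 and LUX acts at night and represses *PRR9* and other genes. GI, an evening protein, stabilizes the F-box protein ZTL and promotes flowering in long days. As each transcript cycles daily, its level in a sample depends on the hour at which the sample is taken.

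Motifs known to be bound by clock proteins were searched in the 300 bases before the annotated start of 9 of the 10 genes, all but *ELF4*, on both strands. The stretches below belong to 3 of the members that differed between the genotypes and to *CCA1*. They are reference sequence of TAIR10.1 (RefSeq), written 5′ to 3′ on the strand of the gene, and capitals mark the motifs. In *TOC1* (chr5:24674787-24674846, plus strand) the capitals are the evening element AAAATATCT, here on the opposite strand, through which CCA1 and LHY are known to bind.
TOC1: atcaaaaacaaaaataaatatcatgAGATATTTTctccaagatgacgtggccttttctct
In *ELF3* (chr2:11058834-11058893, plus strand) they are a site of LUX, GATTCG or GATACG, here on the opposite strand.
ELF3: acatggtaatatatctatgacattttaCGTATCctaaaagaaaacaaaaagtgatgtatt
In *PRR9* (chr2:19232347-19232496, plus strand) they are 2 G-boxes, CACGTG, the site of many light-signalling factors, and a LUX site.
PRR9: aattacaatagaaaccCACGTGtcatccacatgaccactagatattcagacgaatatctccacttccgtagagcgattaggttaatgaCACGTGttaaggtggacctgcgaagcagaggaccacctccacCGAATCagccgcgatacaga
In *CCA1* (chr2:19245386-19245460, plus strand) they are a G-box and a site for TCP factors, GGNCCCAC.
CCA1: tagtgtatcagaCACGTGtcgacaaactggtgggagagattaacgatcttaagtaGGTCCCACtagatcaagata

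The LUX site was found before 2 of these 9 members (*PRR9* and *ELF3*) and before 14.3% of 27443 protein-coding genes. The evening element was found before 3 members (*PRR5*, *TOC1* and *LUX*) and before 2.79% of those genes. G-boxes stood before 5 members, *CCA1*, *LHY*, *PRR9*, *PRR7* and *LUX*, against 7.09% of the genes, and the TCP site before *CCA1* alone among the 9 members searched, against 1.18%. The related CCA1 binding site AAAAATCT was found before *PRR5* only, against 7.94%. None of these motifs overlapped another in a member's window. The *GI* window held none of the 5 motifs, which says only that these letters are not in those 300 bases. A match is a description of the sequence, not proof of binding.

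Library totals were between 25936176 and 32578330 counts, and the members together took 0.0853% to 0.0916% of each library. Replicates varied little, and edgeR put the common biological coefficient of variation at 0.0203. Counting error alone would give a chi-square over its degrees of freedom near 1. It was 1.37 to 1.93 between libraries of the same genotype and 5.17 to 6.05 between genotypes. The methods call the replicates biological and do not say whether they were sown or harvested apart, so the p-values measure the spread between these libraries. For any 1 gene, 3 libraries against 3 allow no two-sided p-value below 0.1 in an exact permutation test. Markers of leaf, root and flower were measured as a check of the tissue. The summed level of the 3 leaf markers (*RBCS1A*, *LHCB1.2* and *LHCB2.1*) was 16960 to 18020 CPM (counts scaled to a common library size) in Col-0 and 16070 to 16580 in *nsra/b*, and 1 of the 3 was called lower. The summed level of 5 root markers was 4031 to 4217 CPM in Col-0 and 4398 to 4779 in *nsra/b*, with *PYK10* and *CASP1* called higher and 3 not called. Of 4 flower markers, *AP1* had at most 1 count in any library, *AP3* and *AG* at most 8, and *PI* was called lower (158 to 202 counts in *nsra/b* against 271 to 308 in Col-0), while both seed storage markers had 0 counts. The part of the shoot and root markers in the results below was not tested.

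Of the 10 clock genes, 4 were called higher and 0 lower in *nsra/b* in edgeR's quasi-likelihood test, with the threshold at 0.01 after Benjamini-Hochberg adjustment. The 4 were *ELF4*, *ELF3*, *PRR9* and *TOC1*. Across all tested features 5.28% were called higher and 3.58% lower, 8.86% in all. The changes were small, with *ELF4* 39.5% higher and the other 3 between 10.3% and 13.3% higher. The median log2 fold change of the 10 members was 0.09 and that of all tested features was -3.79e-05, while the median absolute values were 0.12 and 0.08. At an unadjusted p-value under 0.05, 6 members were higher and 2 lower with edgeR, and 6 and 1 with DESeq2. The share of all tested features under that value was not counted in any setting, so these numbers cannot be read against a background. For 7 members the values of the genotypes did not overlap, as was the case for 30.0% of all tested features. Features of all levels above the filter enter these shares, which were not matched to the members for counts. A small change is more readily called at higher counts, and the members were chosen with earlier results of these data known.

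**Figure D1:**
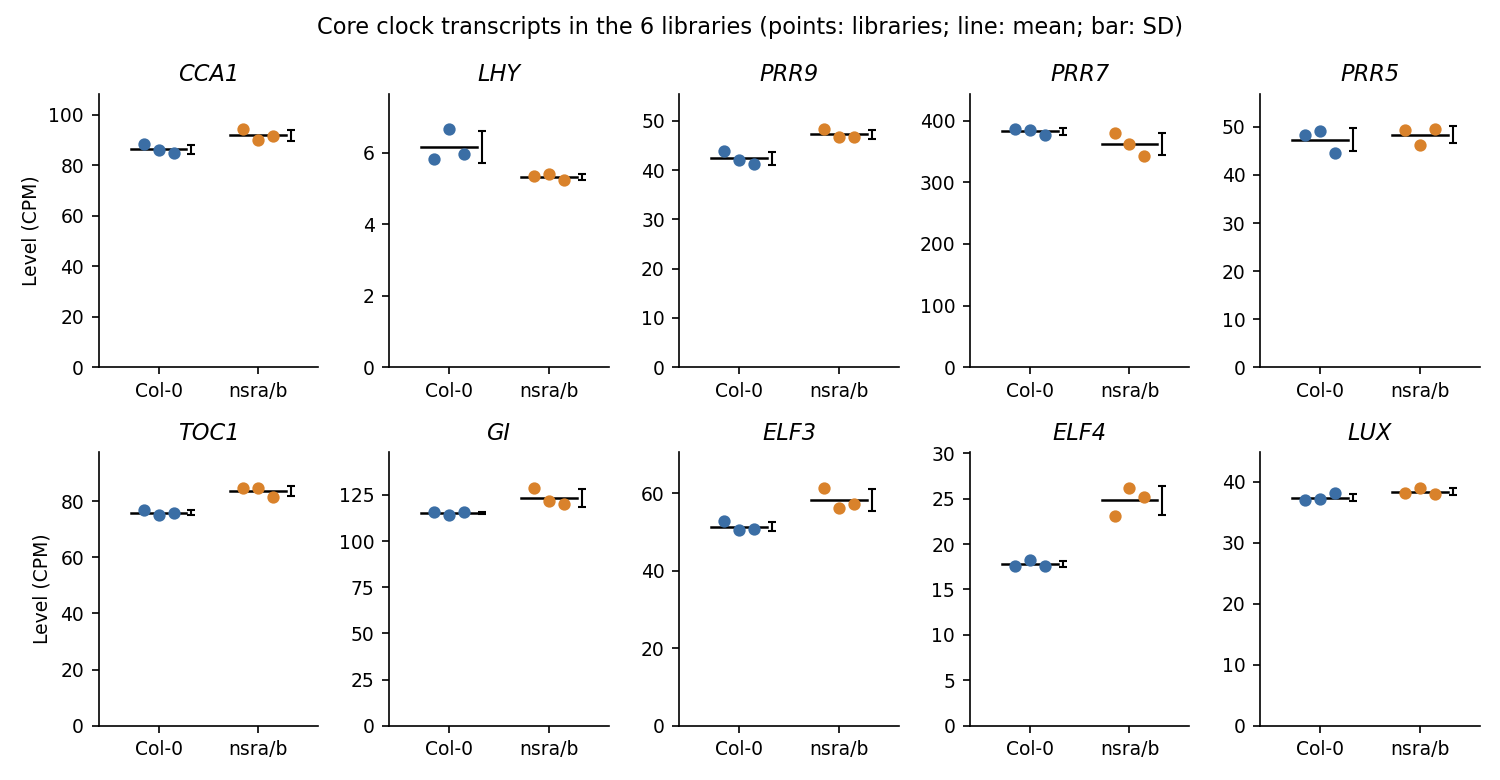
Level of each core clock gene in CPM (y axes start at 0) in the 3 Col-0 and 3 *nsra/b* libraries, with the mean (line) and SD (bar) of each genotype. *ELF4* shows the widest gap between genotypes relative to its level, from 17.8 to 24.8 CPM, while the points of *PRR7*, *PRR5* and *LUX* overlap.

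*ELF4*, *ELF3* and *LUX* form the evening complex, in which LUX binds DNA, ELF3 is the scaffold and ELF4 is a small protein that promotes the function of ELF3. *ELF4* (AT2G40080) lies on chromosome 2 from 16734294 to 16734953 in TAIR10.1 and has 1 annotated transcript. It had 474, 592 and 534 counts in Col-0 against 599, 805 and 756 in *nsra/b*, which corresponded to 17.6, 18.2 and 17.6 CPM and to 23.0, 26.2 and 25.2 CPM. All 3 *nsra/b* libraries were above all 3 Col-0 libraries, and the lowest of them was further from the highest Col-0 library than the Col-0 libraries were from each other. The level rose from 17.8 ± 0.369 to 24.8 ± 1.62 CPM (mean ± SD, n = 3 each), a log2 fold change of 0.48 (standard error 0.0526, adjusted p = 2.65e-08 with edgeR). It was the largest change among the members by either test, and *ELF4* was the only member called with Bonferroni adjustment (adjusted p = 4.06e-06).

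*ELF3* (AT2G25930, chromosome 2 from 11058944 to 11063324) encodes the scaffold that joins ELF4 and LUX. Its levels were 52.8, 50.5 and 50.9 CPM in Col-0 and 61.4, 56.1 and 57.3 CPM in *nsra/b*, without overlap. The mean rose from 51.4 ± 1.27 to 58.3 ± 2.78 CPM (mean ± SD, n = 3 each), a log2 fold change of 0.18 (standard error 0.0362, adjusted p = 0.000493 with edgeR). On the opposite strand, *ELF3* overlaps the antisense gene AT2G08135, which had at most 2 counts in any library, and the last 24 bases of AT2G25940, which had 101 to 140 counts. The counting was strand specific.

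*LUX* (AT3G46640, annotated as *PCL1*, chromosome 3 from 17183042 to 17186959) encodes the DNA-binding subunit. It had 37.0, 37.1 and 38.0 CPM in Col-0 and 38.1, 39.0 and 37.9 CPM in *nsra/b*, so that the genotypes overlapped. Its log2 fold change of 0.04 had a 95% interval of -0.04 to 0.11 (adjusted p = 0.595 with edgeR), which lies below the interval of *ELF4* (0.37 to 0.59). The difference between the fold changes of the subunits was not tested. A stretch of 1507 bases of *LUX* overlaps AT3G46650 on the opposite strand, which had 112 to 159 counts per library.

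*CCA1* (AT2G46830, chromosome 2 from 19245591 to 19248915) and *LHY* (AT1G01060, chromosome 1 from 33365 to 37871) encode closely related factors with a single MYB domain. *CCA1* had 88.3, 86.1 and 84.7 CPM in Col-0 and 94.3, 89.9 and 91.5 CPM in *nsra/b*. The values did not overlap but were 6.37% apart on average, and the log2 fold change of 0.09 (95% interval 0.03 to 0.15) did not pass the threshold (adjusted p = 0.0396 with edgeR). *LHY* had far fewer reads, 157, 216 and 181 counts in Col-0 against 139, 166 and 157 in *nsra/b*, or 5.83, 6.66 and 5.97 CPM and 5.34, 5.40 and 5.23 CPM. Its log2 fold change was -0.21 with a standard error of 0.0926 (adjusted p = 0.129 with edgeR). Neither was thus called, and the estimates had opposite signs. The ratio of *CCA1* to *LHY* per exon length was 18.9, 16.2 and 17.9 in Col-0 against 22.2, 20.9 and 22 in *nsra/b*.

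**Figure D2:**
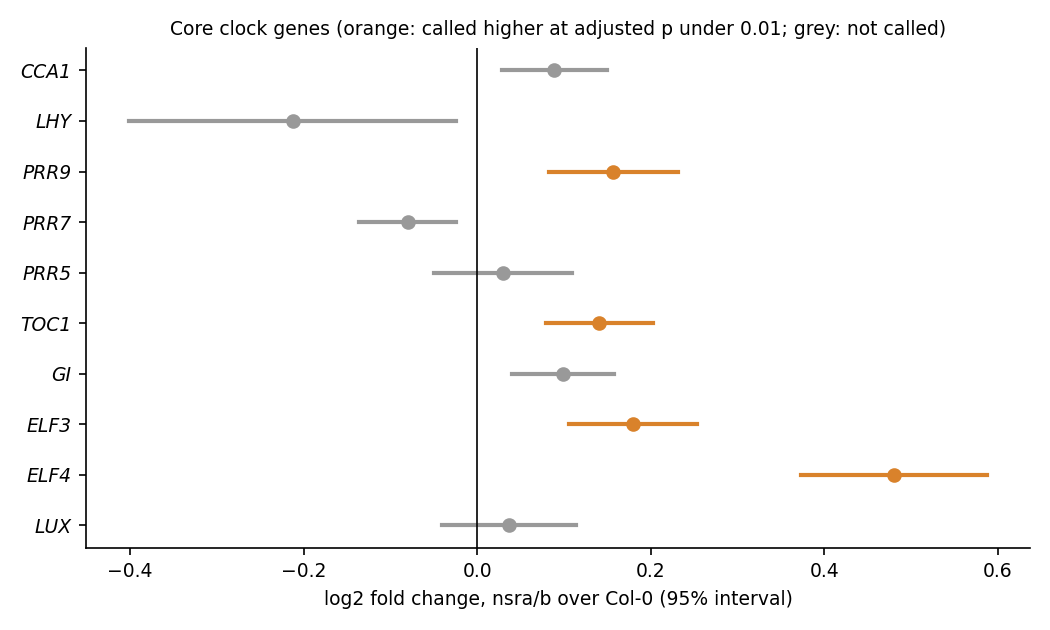
Log2 fold change of *nsra/b* over Col-0 (x axis) of the 10 core clock genes, with 95% intervals from edgeR. The 4 called genes (orange) lie to the right of 0 with *ELF4* at 0.48, and *LHY* and *PRR7*, which were not called, lie to the left.

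The pseudo-response regulators are transcriptional repressors expressed in sequence from morning (PRR9) to evening (TOC1). *PRR9* (AT2G46790, chromosome 2 from 19232607 to 19235179) had 43.8, 42.0 and 41.3 CPM in Col-0 and 48.3, 46.8 and 46.6 CPM in *nsra/b*. All *nsra/b* libraries were higher, and the mean rose from 42.4 ± 1.30 to 47.2 ± 0.920 CPM (mean ± SD, n = 3 each), a log2 fold change of 0.16 (standard error 0.0366, adjusted p = 0.00247 with edgeR). DESeq2 did not call it (adjusted p = 0.0301). *PRR9* and *CCA1* are on the same strand, 10411 bases apart.

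*TOC1* (AT5G61380, chromosome 5 from 24674963 to 24678550), the evening member of the family, was at 76.8, 75.1 and 75.8 CPM in Col-0 and at 84.8, 84.7 and 81.5 CPM in *nsra/b*. The genotypes did not overlap. The rise from 75.9 ± 0.862 to 83.7 ± 1.88 CPM (mean ± SD, n = 3 each) corresponded to a log2 fold change of 0.14 (standard error 0.0302, adjusted p = 0.00102 with edgeR) and was called by DESeq2 as well (adjusted p = 0.00839).

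*PRR7* (AT5G02810, chromosome 5 from 637681 to 642030) acts in the morning loop next to PRR9 and was the most abundant member. It had 385.9, 385.1 and 375.8 CPM in Col-0 and 379.7, 362.6 and 343.0 CPM in *nsra/b*, where library 1 was above the lowest Col-0 library and library 3 was the lowest of all. The log2 fold change was -0.08 (95% interval -0.14 to -0.02), which was not called (adjusted p = 0.0437 with edgeR). The 3 *nsra/b* libraries differed from each other by more than counting error in *PRR7* (chi-square 49.9 with 2 degrees of freedom, where 5.99 is the 95% point), as they did in *GI* (10.2) and *ELF3* (7.72). These were 3 of 10 members, against 13.4% of all tested features, whereas 0 of 10 members and 10.2% of the features exceeded the same point in Col-0. There *PRR5* was just under it, with a chi-square of 5.96. The shares were not matched for counts, and the same relative spread gives a larger chi-square at higher counts. *PRR5* (AT5G24470, chromosome 5 from 8356204 to 8358546), which acts between PRR7 and TOC1, had 48.3, 49.1 and 44.7 CPM in Col-0 and 49.3, 46.3 and 49.5 CPM in *nsra/b*. The genotypes overlapped, and the log2 fold change of 0.03 had a 95% interval of -0.05 to 0.11 (adjusted p = 0.685 with edgeR).

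*GI* (AT1G22770, chromosome 1 from 8061751 to 8067790) had 115.5, 114.3 and 115.5 CPM in Col-0 and 128.9, 121.5 and 119.9 CPM in *nsra/b*. The values did not overlap, but the log2 fold change of 0.10 (95% interval 0.04 to 0.16) was just outside the threshold (adjusted p = 0.0159 with edgeR). DESeq2 gave an adjusted p-value of 0.071.

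To compare the genes with each other, CPM were divided by the summed length of the annotated exons (FPKM). In Col-0 the highest level was that of *PRR7*, 118 ± 1.73 FPKM, followed by *CCA1* with 31.7 ± 0.663, *ELF4* with 28.8 ± 0.596, *PRR5* with 28.2 ± 1.41, *TOC1* with 27.0 ± 0.307 and *GI* with 26.8 ± 0.162 FPKM (SD, n = 3 libraries). The ranges of neighbours overlapped from *ELF4* to *GI*. Below them were *PRR9* with 19.8 ± 0.607, *ELF3* with 18.7 ± 0.463, *LUX* with 9.54 ± 0.149 and *LHY* with 1.80 ± 0.129 FPKM (SD, n = 3 libraries), each without overlap with the next. In *nsra/b* the order was the same except that *ELF4*, at 40.1 ± 2.62 FPKM, stood above *CCA1* at 33.8 ± 0.817 FPKM, and *TOC1*, at 29.8 ± 0.670 FPKM, stood above *PRR5* at 28.8 ± 1.08 FPKM (SD, n = 3 libraries). The ranges of *ELF4* and *CCA1* did not overlap there, while those of *TOC1* and *PRR5* did.

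**Figure D3:**
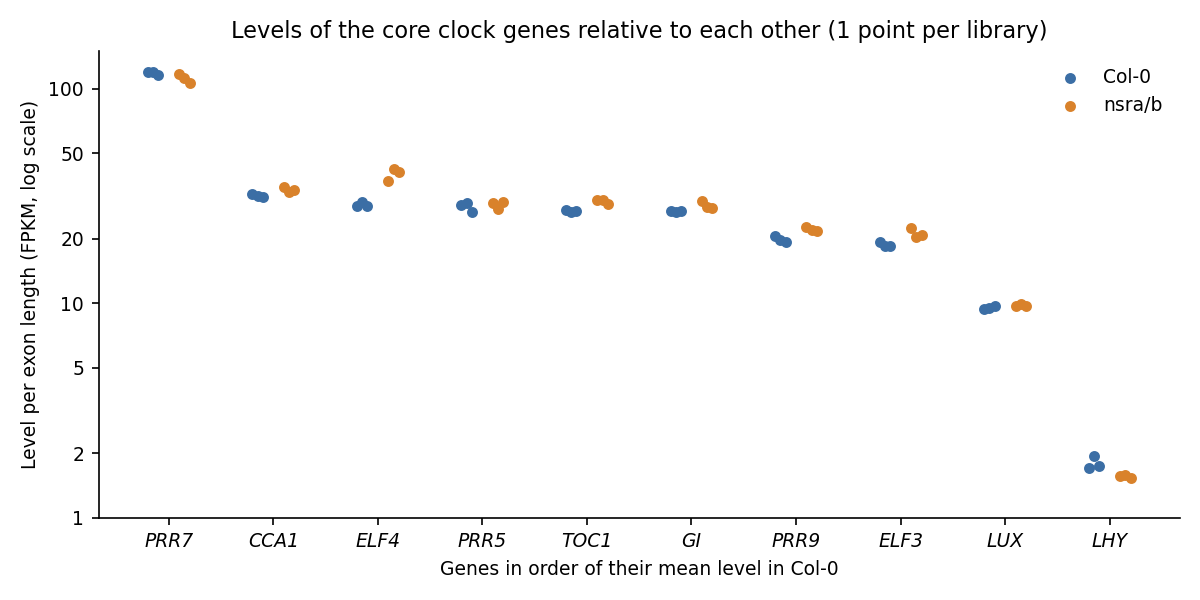
Level per exon length in FPKM (log axis) of the core clock genes in each library, ordered by the Col-0 mean. *PRR7* is at 118 and *LHY* at 1.80 FPKM in Col-0, and *ELF4* moves from 28.8 to 40.1 FPKM, above *CCA1*, in *nsra/b*.

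The calls of the 4 members were read again with each library left out in turn. *ELF4* (log2 fold change 0.44 to 0.53) and *ELF3* (0.14 to 0.21) were called in all 6 fits, *TOC1* (0.13 to 0.16) in 5 and *PRR9* (0.14 to 0.18) in 4. Without Col-0 replicate 2 the number of members called fell to 2, *ELF3* and *ELF4*, and without Col-0 replicate 3 *PRR9* was not called. *PRR7* was called lower without *nsra/b* replicate 1 (-0.115) and was at -0.04 without *nsra/b* replicate 3, and *GI* was called higher without *nsra/b* replicate 3 (0.12). With the biological coefficient of variation fixed at 0.1, an alternative chosen after seeing the data, edgeR's likelihood ratio test called 0 members, and 1 had an unadjusted p-value under 0.05. *ELF4* then had an adjusted p-value of 0.0164.

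**Figure D4:**
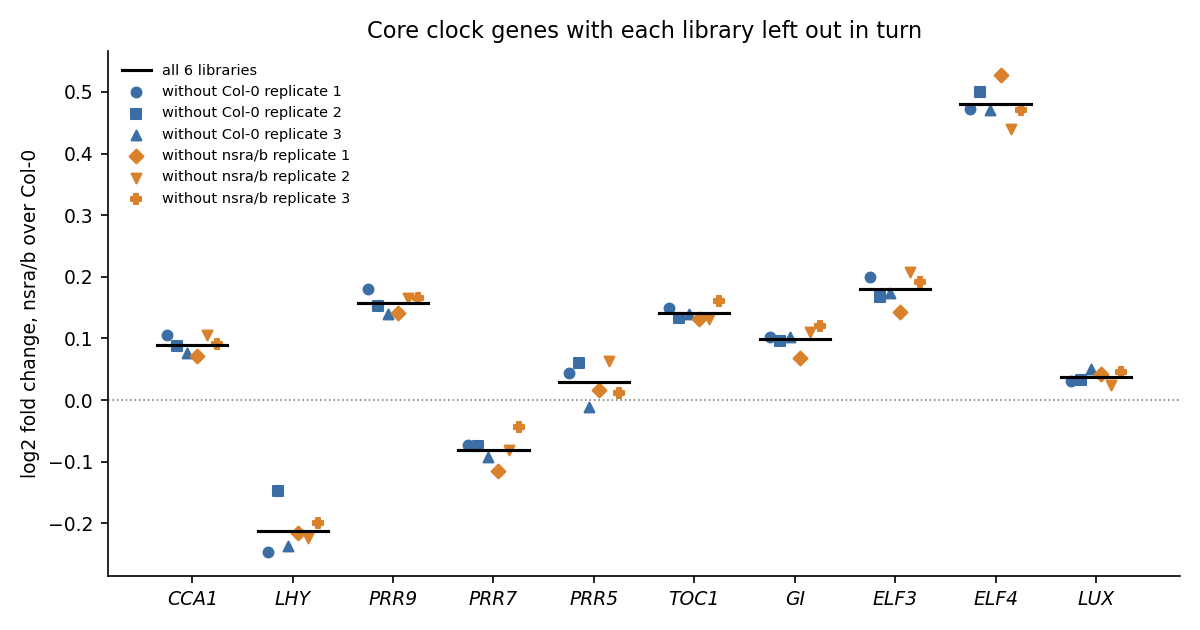
Log2 fold change of *nsra/b* over Col-0 (y axis) of each core clock gene with all 6 libraries (black line) and with each library left out (symbols, blue for Col-0 and orange for *nsra/b* libraries). *ELF4* stays between 0.44 and 0.53, while *PRR7* runs from -0.115 to -0.04 and *PRR5* crosses 0.

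A further 50 clock genes in 3 lists were read from the same fit. The RVE factors are MYB proteins related to CCA1, several of which activate evening genes, and the LNK proteins are their coactivators. Of 12 such genes, 1 was called higher and 2 lower in *nsra/b*, with 9 not called. *RVE2* rose with 8.66, 8.51 and 8.50 CPM in Col-0 and 10.8, 10.3 and 12.0 CPM in *nsra/b* (log2 fold change 0.37, adjusted p = 0.000451 with edgeR). *RVE4* fell, from 165.8, 167.9 and 161.2 CPM to 147.1, 148.5 and 147.9 CPM (log2 fold change -0.16, adjusted p = 3.26e-05 with edgeR). The start of *RVE4* faces away from that of *PRR7*, 6617 bases further along chromosome 5. *LNK2* was called lower (log2 fold change -0.14, adjusted p = 0.00367 with edgeR), yet its values of 449.3, 443.5 and 429.5 CPM in Col-0 overlapped with 433.7, 400.8 and 367.9 CPM in *nsra/b*. It was called in only 2 of the 6 fits with a library left out (-0.20 to -0.08) and not by DESeq2 (adjusted p = 0.279). The *nsra/b* libraries had the same order in *LNK2* as in *PRR7*, with library 1 highest and library 3 lowest. *PRR9*, *TOC1* and *GI*, whose log2 fold changes were positive, had this order too.

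Of 22 genes in the list of the ZTL family and other clock-associated genes, 3 were called higher, 2 lower and 17 not. *CHE*, a TCP factor known to bind the *CCA1* promoter and to repress it, fell from 49.6, 46.4 and 44.8 CPM in Col-0 to 38.1, 38.3 and 34.4 CPM in *nsra/b*. The genotypes did not overlap, and the log2 fold change of -0.34 (standard error 0.0428, adjusted p = 2.96e-07 with edgeR) was called in all 6 fits with a library left out. The TCP site before *CCA1* printed above is the kind of site that TCP factors bind. *CCA1* itself was not called, and a link between *CHE* and the level of *CCA1* was not tested. *PRR3*, which stabilizes TOC1 protein, rose from 13.1, 12.8 and 12.6 to 14.8, 15.6 and 16.4 CPM (log2 fold change 0.29, adjusted p = 0.00091 with edgeR). *FKF1*, a blue-light receptor that works with GI in flowering, rose by 0.25 on the log2 scale (adjusted p = 0.00352 with edgeR). *JMJ30*, a JmjC-domain protein of the evening, rose by 0.33 (adjusted p = 0.00407 with edgeR), and *SKIP*, a splicing factor that acts on clock transcripts, fell by 0.12 (adjusted p = 0.00195 with edgeR). DESeq2 called only *CHE* and *SKIP* of these 5, and without *nsra/b* replicate 3 edgeR called only *CHE* and *JMJ30*. The number called in this list was 3 without Col-0 replicate 1, without Col-0 replicate 2 or without *nsra/b* replicate 2, with *CHE* among them each time. *ZTL* itself, the F-box protein that targets TOC1, had a log2 fold change of 0.03 (adjusted p = 0.617 with edgeR).

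Of 16 clock output genes, 1 was called higher, 2 lower and 13 not. Without *nsra/b* replicate 1 the number called was 5 in place of 3. The catalase genes *CAT2* and *CAT3*, which are known to peak at opposite times of the day, moved in opposite directions. *CAT2*, the morning form, rose by 0.26 (adjusted p = 9.22e-11 with edgeR), and *CAT3*, the evening form, was lower with a log2 fold change of -0.24 (adjusted p = 1.48e-09 with edgeR). Whether these changes relate to the timing of the clock was not tested. The chlorophyll-binding protein gene *LHCB1.1*, also called *CAB2*, whose timing gave *TOC1* its name, had a log2 fold change of -0.17 (adjusted p = 4.06e-06 with edgeR). It is a gene of the shoot, like the 3 leaf markers. Of these, *LHCB1.2* was called lower (log2 fold change -0.23), while *RBCS1A* (-0.02) and *LHCB2.1* (-0.08) were not called. The RNA-binding protein genes *GRP7* and *GRP8* had log2 fold changes of 0.08 and 0.05 and were not called. The medians of the 3 lists were 0.03, -0.01 and -0.06, and the shares called higher were 8.33%, 13.6% and 6.25%, against 5.28% of all tested features. The shares called lower were 16.7%, 9.09% and 12.5%, against 3.58%. Neither set of shares was matched for counts.

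**Figure D5:**
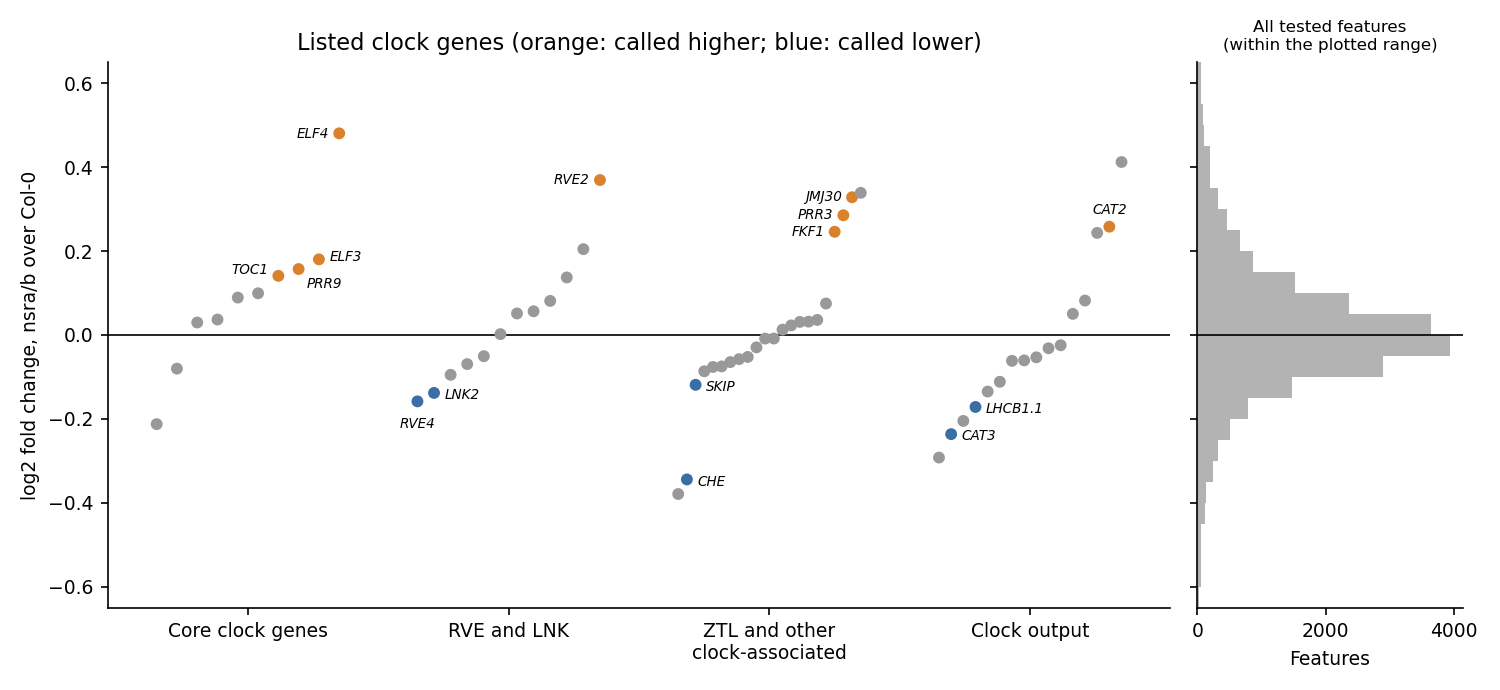
Log2 fold change of *nsra/b* over Col-0 (y axis) of the core clock genes and of the 3 other clock lists, 1 point per gene, beside the distribution of all tested features. Called genes are named, and *ELF4* at 0.48 and *CHE* at -0.34 are the called genes furthest from 0 on either side.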

How the data were processed

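The deposited values are raw counts per gene from stranded paired-end sequencing of polyadenylated RNA. The authors filtered the reads with fastqc, aligned them with tophat (1 alignment kept for each read) and obtained counts by strand with summarizeOverlaps in Union mode on Araport11 genes and loci assembled with cufflinks. Tool versions are not given in the sources used here, and the labels name the build TAIR10. Gene counts do not separate splice forms. Positions, exon lengths, symbols and upstream sequence came from TAIR10.1 (RefSeq). The sequence before *ELF4* is not reported here. In this annotation all 10 members and 70 of the 74 listed genes had the symbol used.

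Groups came from the labels. Counts were fitted over the whole table with edgeR 4.0.16 in R 4.3.3, with filterByExpr (minimum count 10, minimum total count 15), TMM factors from 0.992 to 1.01, genotype as the only factor, the quasi-likelihood test and Benjamini-Hochberg adjustment over 21606 features, at an adjusted p-value under 0.01. The 22594 features below the filter were not tested. CPM used the totals of the tested features times the TMM factors. Standard errors were the size of the log2 fold change divided by the root of the F statistic. DESeq2 1.42.0 and limma voom 3.58.1 were alternatives, with other normalizations, filters and thresholds, a block for the replicate number and fits that left out 1 library. The fit was tested on simulated data. All 10 members are named, and in each other clock list the called genes, at most 6. For the called member with the largest change, the 5 features with the nearest profile are named too. *ZTL*, *GRP7* and *GRP8*, *PI*, *FLC*, AT1G76940 and AT1G21320 were named after their values were seen. The members and lists were chosen with earlier results of these data known. The NAA-treated samples were not analysed here. Members had 139 to 12495 counts per library, so that counting error is widest for *LHY*.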

Additional observations from a re-analysis of the deposited data

How the results depend on the processing

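With 16 alternatives set beforehand and 1 added after seeing the data, the 21 fold changes of members and named genes kept their direction, except that *PRR5*, which was not called, had a log2 fold change of -0.011 without Col-0 replicate 3 (-0.011 to 0.063 over the libraries left out). Settings that changed only the threshold, the adjustment or a minimum size reused the main fold changes, whose direction could not change there. The number of features called was 1120 with DESeq2, 3218 at an adjusted p-value under 0.05, 494 with Bonferroni adjustment, 95 with a minimum size of 1 for the log2 fold change, 203 with a biological coefficient of variation of 0.1, and 1290 to 1859 with a library left out, against 1914. Of the members, 7 were called at an adjusted p-value under 0.05, 1 with Bonferroni adjustment, 0 with the minimum fold change, 0 with the fixed coefficient and 2 to 5 with a library left out, against 4. Bonferroni adjustment, the minimum fold change and the fixed coefficient each left 0 of the RVE and LNK genes, which stood at 3, and 2 to 3 with a library left out. In the ZTL list, which stood at 5, the number was 2 with DESeq2, 1 with Bonferroni adjustment, 0 with the minimum fold change, 0 with the fixed coefficient and 2 to 4 with a library left out. Of the output genes, 5 were called with library size only, 5 without a filter, 6 at an adjusted p-value under 0.05, 0 with the minimum fold change, 0 with the fixed coefficient and 3 to 5 with a library left out, against 3. At an unadjusted p-value under 0.05 the fixed coefficient left 1 member, 1 RVE or LNK gene, 4 of the ZTL list and 3 output genes. The share of all tested features at that value was not counted. The cause of the differences between settings was not tested. The samples share only replicate numbers: the correlations of same-numbered libraries were -0.0119, 0.0254 and 0.0558, not every library correlated best with its own number, and the fit with the replicate number as a block called 2093 features and 5 members, with *GI* added. Dividing by the longest transcript instead of all exons gave 32.9 FPKM for *CCA1*, 2.1 for *LHY*, 20.7 for *PRR9* and 11.5 for *LUX* in Col-0.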

Other observations

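The 5 features whose log2 CPM over the 6 libraries, centred on their own mean, lay nearest to those of *ELF4* were *CAX3*, *RLP57*, AT2G44010, *ARR6* and *AHP1*, at Euclidean distances of 0.0627 to 0.109. *CAX3*, which encodes a cation/proton exchanger, was the nearest, with 363, 453 and 411 counts in Col-0 against 478, 620 and 602 in *nsra/b*, a log2 fold change of 0.52. *ARR6*, a type-A response regulator of the cytokinin pathway, had 249, 311 and 271 counts and 310, 390 and 376, a log2 fold change of 0.42. *AHP1*, which encodes a histidine phosphotransfer protein of the same pathway, had 520, 663 and 615 counts and 691, 881 and 798, a log2 fold change of 0.45. The libraries fall into the 2 genotypes, so the likeness mostly restates that these genes differ between genotypes by about as much as *ELF4* does, and no test was made.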
